A study of Homo sapiens with 4 samples.

Results

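The genes described here are 10 genes of the TGF-β pathway: the ligand genes TGFB1 and TGFB2, the receptor genes TGFBR1 and TGFBR2, the SMAD genes SMAD2, SMAD3, SMAD5 and SMAD7, and the genes of the inhibitors SKI and SMURF2. They were found by gene name in the deposited tables, with each position counted once per gene. All 10 were listed, among 6112 listed genes, and they held 28 of the 17862 listed positions. They were chosen with earlier results of these data known, so that all are listed is not a result. Other genes of the pathway, among them SMAD4 and TGFB3, were not listed. The libraries came from LX-2, an established line of human hepatic stellate cells labelled as wild type. Cells of 2 libraries had received recombinant human TGF-β1 at 5 ng/ml for 24 h, and those of 2 libraries were untreated (control), all in the same serum-containing medium. Polyadenylated RNA was sequenced after sodium borohydride (NaBH4), a chemical that reduces N4-acetylcytidine (ac4C) so that reverse transcription can misread it, and the study asked how ac4C changes under TGF-β1.

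The TGF-β ligands are secreted in a latent form. Once active they bring together the type II receptor kinase TGFBR2 and the type I receptor kinase TGFBR1, which phosphorylates SMAD2 and SMAD3, and these enter the nucleus as transcription factors. SMAD5 belongs to the branch driven by bone morphogenetic proteins, SMAD7 and the ubiquitin ligase SMURF2 act together against the receptors, and SKI represses SMAD-driven transcription. In hepatic stellate cells this pathway is known for driving the change to a matrix-producing myofibroblast.

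Each group has 1 deposited table, with 11735 positions after TGF-β1 and 8112 in control. A position is a cytidine with a mismatch difference, a fraction given here in percent, and a p-value of the authors below 0.05. Neither table holds a value below 1%. No reads, depths or values per library are given, so no value below has a replicate error, and the groups could not be compared by a test. A position that is not listed may be unmodified, below the authors' limits or not covered. Transcript levels are not given either. No library is labelled as made without NaBH4, so a listed position is a C mismatch and not a proven ac4C. Of 14 stellate cell and myofibroblast markers 9 were listed, among them COL1A1 with 10 positions after TGF-β1 and 4 in control, and ACTA2 with 2 and 0. DES, LRAT, HGF, RGS5 and COL1A2 were not listed. No hepatocyte or endothelial marker was listed (0 of 7 and 0 of 5), while the cholangiocyte list had SOX9 with 0 positions after TGF-β1 and 1 in control, and the macrophage list had CD68 with 2 and 3.

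The 2 ligand genes described here had more listed cytidines after TGF-β1 than in control, and the receptor and SMAD genes described here had fewer. The ligand genes held 11 listed positions after TGF-β1, against 4 in control. TGFB1 alone held 9 of the 11 and all 4 in control. The receptor genes held 0 after TGF-β1, against 3 in control, and the receptor-activated SMADs (SMAD2, SMAD3 and SMAD5) held 1, against 5. The inhibitors held 3 in each group, but in different genes: all 3 positions after TGF-β1 were in SMURF2, and the 3 in control were in SKI and SMAD7. In all, the 10 genes held 15 positions after TGF-β1 and 15 in control. The ligand excess was smaller, at 5 and 4, with the TGF-β1 table cut by lowest p to the length of the control table. There the receptors had 0 and 3 and the receptor-activated SMADs 0 and 5. The cut takes positions from the TGF-β1 table only, so it could not have narrowed the receptor and SMAD differences. With a mismatch difference of at least 5% the ligand excess was absent, at 2 and 2. The receptors then had 0 and 0 and the receptor-activated SMADs 1 and 2. The contrast did not extend to the further ligand and receptor genes described below. The 2 further ligands that were listed held 2 positions after TGF-β1 and 5 in control, and both had fewer. The 4 further receptors and co-receptors that were listed held 10 and 4, where 3 had more and 1 had fewer.

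**Figure D1:**
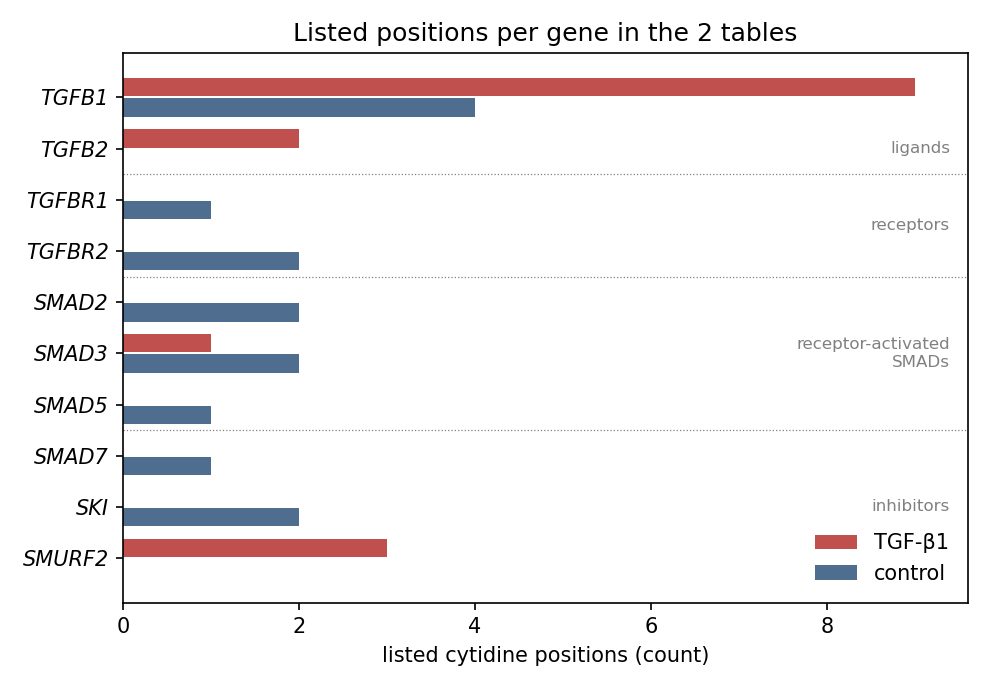
Listed cytidine positions per gene (x axis, count), with the TGF-β1 table above the control table for each gene and dotted lines between the classes of gene. TGFB1 has 9 positions after TGF-β1 and 4 in control, while both receptor genes have none after TGF-β1.

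By gene, 3 of the 10 had more listed positions under TGF-β1 (TGFB1, TGFB2 and SMURF2) and 7 had fewer. Over all listed genes 51.2% had more and 35.3% had fewer. TGFB2 and SMURF2 were in the TGF-β1 list only, as were 28.3% of all listed genes. TGFBR1, TGFBR2, SMAD2, SMAD5, SMAD7 and SKI, 6 of the 10, were in the control list only, as were 27.3% of all listed genes. These 6 held 1 or 2 positions each. Of all genes with 1 or 2 positions over both lists, 43.1% had fewer after TGF-β1, which at such counts means the control list only. SMAD3 and TGFB1 were in both lists.

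These genes are mostly long and thinly listed, and both properties move with the direction over all genes. By the tables' gene limits 9 of the 10 span over 50 kb, up to 131.4 kb for SMAD3, and SMAD7 spans 31.1 kb. By RefSeq limits 7 do, since TGFB1 spans 23.6 kb there (52.3 kb in the tables) and SMAD5 49.9 kb (55.9 kb). Among all listed genes over 50 kb, 34.2% had gained positions under TGF-β1 and 53.1% had lost some, and they held 3138 positions after TGF-β1 and 3383 in control, a ratio of 0.928. Genes of 50 kb or less had 8938 and 4915, a ratio of 1.82. Of the 9 long genes here, 3 had more and 6 had fewer. Among all genes with 1 or 2 positions over both lists, 40.6% had more and 43.1% had fewer. Of the 7 such genes here, TGFB2 had more and 6 had fewer. The part of gene length and of depth in these counts was not tested.

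TGFB1 (ENSG00000105329), which encodes the ligand that was also added to the medium, had the most listed positions of the 10 genes in both tables. It lies on the minus strand of chromosome 19 at 41301587 to 41353922 in hg38. Its 9 positions after TGF-β1 were reached or exceeded by 167 of 4444 listed genes (3.76%), and its 4 in control by 452 of 4384 (10.3%). Only 1 of its 12 distinct positions was in both lists. The positions were spread over the transcript, with 3 in the 5′UTR, 4 in coding sequence and 2 in the 3′UTR after TGF-β1, against 2 in the 5′UTR, 2 in coding sequence and none in the 3′UTR in control.

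The TGFB1 positions after TGF-β1 had low mismatch differences. In the 5′UTR they were 3.02% at position 41353864, 1.82% at 41353651 and 3.56% at 41353612. In coding sequence they were 2.80% at 41352927, 3.58% at 41348358, 2.03% at 41344754 and 1.51% at 41332169. In the 3′UTR they were 2.36% at 41330620 and 10.5% at 41330536. Of these 9 values 8 lay below the median of the TGF-β1 table (4.68%), and the 3′UTR value of 10.5% was the exception.

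In control the TGFB1 values were 4.78% at 41353660 and 8.36% at 41353462 in the 5′UTR, and 3.50% at 41352927 and 7.11% at 41344768 in coding sequence. Of these 4, 3 lay above the median of the control table (4.05%). The gene's median was thus 2.80% over 9 positions after TGF-β1 and 5.94% over 4 positions in control, but these are different cytidines except for 1, and the 10.5% after TGF-β1 lay above all 4 control values. The authors' p-values ran from 3.4e-20 to 0.0479 after TGF-β1 and from 2.27e-07 to 0.0487 in control.

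The shared TGFB1 cytidine, coding position 41352927, had 2.80% after TGF-β1 (p of the authors 8.94e-11) and 3.50% in control (2.27e-07). The difference was -0.70 points, or -0.32 on the log2 scale. Over all 1985 cytidines in both lists 78.4% were higher after TGF-β1, with a median difference of 1.73 points, so this cytidine was among the minority with a lower value. After TGF-β1 it thus had the lower mismatch difference together with the smaller p-value. Some other TGFB1 positions of the 2 lists were close neighbours: 41353651 (TGF-β1) and 41353660 (control) were 9 bases apart, and 41344754 (TGF-β1) and 41344768 (control) were 14 bases apart. In both pairs the cytidine of the TGF-β1 list had the lower value, at 1.82% against 4.78% and at 2.03% against 7.11%. The cytidines of a pair are different bases, each listed in 1 group only, so these values show no change at a given site.

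**Figure D2:**
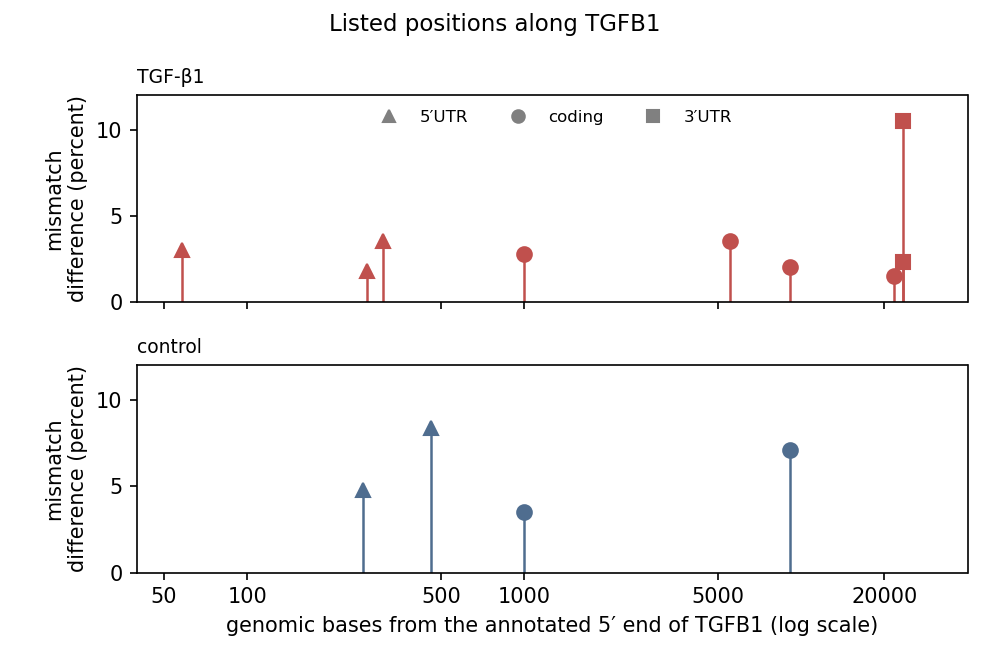
Mismatch difference (y axis, percent) of each listed TGFB1 position against its genomic distance from the gene's annotated 5′ end (x axis, bases, log scale, introns included), for TGF-β1 (upper panel) and control (lower panel). The 9 positions of the TGF-β1 table run to the 3′UTR and all but 1 lie below 4%, while the 4 control positions end in coding sequence and run from 3.50% to 8.36%.

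The excess of TGFB1 positions after TGF-β1 depended on the limits set on the lists. When only the 8112 positions of lowest p were kept from the TGF-β1 table, to equal the control table, TGFB1 had 4 positions after TGF-β1 and 4 in control. With a mismatch difference of at least 5%, it had 1 and 2. With the authors' p below 0.01 it had 7 and 2. Leaving out positions of p exactly 0 could not change its 9 and 4, since TGFB1 had 0 such positions in either list.

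TGFB2 (ENSG00000092969, chromosome 1, plus strand, 218345336 to 218444619), which encodes a second secreted ligand of the same receptors, was listed after TGF-β1 only. Its 5′UTR position 218345444, 108 bases from the gene's 5′ end, had 4.75% (p of the authors 0.0286). Its coding position 218346824 had 58.3%, with a p-value of exactly 0, and neither position was in the control list. The coding value was the highest among the 10 genes, and only 10 of the 11735 positions of the TGF-β1 table had a higher one. Values of this size were rare: 29 positions after TGF-β1 and 7 in control were above 50%, of which 12 and 1 had a p-value of exactly 0, and 9 and 0 were listed in the other table. With positions of p exactly 0 left out, TGFB2 had 1 position after TGF-β1 and 0 in control.

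The ligand transcripts carried many of their listed cytidines in the 5′UTR. Of their 14 distinct positions 6 lay in the 5′UTR (42.9%), 6 in coding sequence and 2 in the 3′UTR, whereas 9.88% of all 17862 listed positions lay in 5′UTRs. Of the other 8 genes 1, SMAD5, had a 5′UTR position. TGFB1 supplied 5 of the 6, so the share describes that gene more than ligands in general. Each of the 6 lies in only 1 annotated transcript of its gene, whereas the coding positions of TGFB1 lie in 3. The lengths of the 5′UTRs were not taken into account. After TGF-β1 the ligand share was 4 of 11 (36.4%), against 9.96% of all positions in that table, and in control it was 2 of 4, against 9.87%.

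The receptor genes were listed in control only, with coding positions alone. TGFBR1 (ENSG00000106799, chromosome 9), the type I receptor kinase, was not listed after TGF-β1, and in control it had 2.55% at position 99147762 on the plus strand (p of the authors 0.0156). That position lies in 8 annotated transcripts of the gene. TGFBR2 (ENSG00000163513, chromosome 3), the type II receptor kinase, was also not listed after TGF-β1, and in control it had 4.99% at position 30671792 and 3.23% at position 30672007, 215 bases apart on the plus strand. The TGFBR2 p-values were 0.00056 and 0.000229, so both positions also passed a stricter limit of 0.01, which the TGFBR1 position did not. None of the 3 values reached 5%.

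The SMADs that the TGF-β receptors activate had few positions and 1 of them in both lists. SMAD2 (ENSG00000175387, chromosome 18, minus strand) was not listed after TGF-β1, and in control it had coding positions at 2.65% (47896732) and 3.34% (47896593), 139 bases apart. SMAD3 (ENSG00000166949, chromosome 15, plus strand) had 6.49% after TGF-β1 and 3.82% in control at its shared 3′UTR position 67191192. This difference of 2.66 points, or 0.76 on the log2 scale, has the direction of most shared cytidines and is larger than their median of 1.73 points. The authors' p-value there was 0.0464 after TGF-β1 and 0.00965 in control, so the higher value had the weaker p, the reverse of the shared TGFB1 cytidine. SMAD3 also had 13.2% in control at position 67174352, the highest value of the 10 genes in that table, with an authors' p-value of 0.0369. That cytidine is annotated to a noncoding exon of 1 transcript.

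SMAD5 (ENSG00000113658, chromosome 5, plus strand), the SMAD of the bone morphogenetic protein branch, was not listed after TGF-β1. In control it had 12.5% at the 5′UTR position 136132926, 81 bases from the gene's 5′ end, with a p-value of 1.67e-05. Only 59 of the 801 control positions in 5′UTRs had a higher mismatch difference. The SMAD5 value lay above the control values of the receptors and SMAD2, which ran from 2.55% to 4.99% and were all in coding sequence.

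The inhibitor genes were split by list. SMURF2 (ENSG00000108854, chromosome 17, minus strand), the ubiquitin ligase that SMAD7 recruits to the receptors, had 3 coding positions after TGF-β1 and none in control. They had 9.30% at 64547669, 4.18% at 64547695 and 4.06% at 64580879, with p-values of 4.3e-05, 0.0201 and 0.000201. The first of these and the second were 26 bases apart. SMAD7 (ENSG00000101665, chromosome 18, minus strand), the inhibitory SMAD, was not listed after TGF-β1 and had 5.49% in control at the 3′UTR position 48921143, where the authors' p-value was 0.0263. SKI (ENSG00000157933, chromosome 1, plus strand), the SMAD corepressor, was not listed after TGF-β1 and had 2.14% at 2229641 and 2.42% at 2304528 in control, both in coding sequence. These were the lowest control values of the 10 genes.

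**Figure D3:**
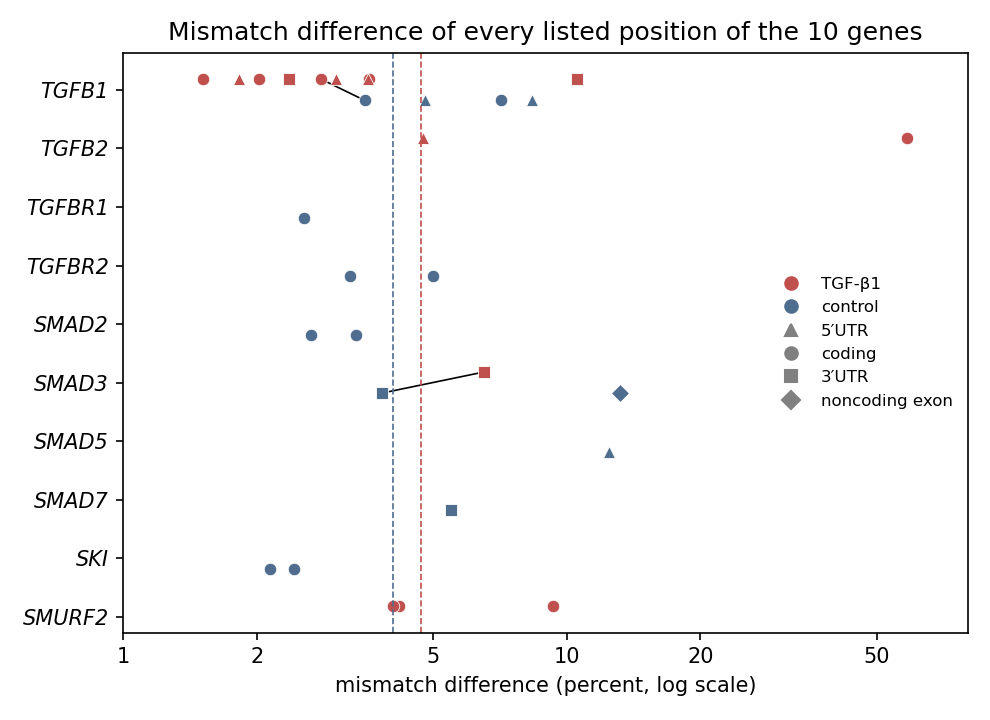
Mismatch difference (x axis, percent, log scale) of each listed position of the 10 genes, in red after TGF-β1 and in blue in control, with the marker giving the segment of the transcript. Black lines join the 2 cytidines in both lists, and dashed lines are the medians of all positions (4.68% after TGF-β1, 4.05% in control). Apart from 58.3% in TGFB2, the values lie between 1.51% and 13.2%.

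Few cytidines of the 10 genes recurred, which was also true of the lists as a whole. After TGF-β1, 2 of the 15 positions were also in control (13.3%), against 16.9% of all positions in that table. In control, 2 of 15 (13.3%) were also listed after TGF-β1, against 24.5% of all. The levels were likewise spread around the medians of the tables: 10 of 15 lay below the median after TGF-β1 and 8 of 15 in control. By class the control values of the receptors ran from 2.55% to 4.99%, those of the receptor-activated SMADs from 2.65% to 13.2% and those of the inhibitors from 2.14% to 5.49%, overlapping the ligands' 3.50% to 8.36%.

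Other genes of the pathway went both ways, in shares near those of all listed genes. Of 90 further pathway genes 32 were listed, 17 with more positions after TGF-β1 (53.1%), 13 with fewer (40.6%) and 2 with equal numbers, against 51.2% and 35.3% of all listed genes. They held 62 positions after TGF-β1 and 47 in control. Of 22 further ligand genes 2 were listed, and both had fewer: GDF11, a ligand of activin receptors, had 2 after TGF-β1 and 4 in control, and INHBA, the activin A subunit, had 0 and 1. TGFB3, which encodes the other TGF-β ligand, was not listed.

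Of 17 further receptors and co-receptors 4 were listed, 3 with more and 1 with fewer. ENG, endoglin, a co-receptor that binds TGF-β together with its receptors, had 7 positions after TGF-β1 and 3 in control. Of its 2 shared cytidines, coding position 127819632 on chromosome 9 had 15.3% after TGF-β1 and 8.46% in control, and 3′UTR position 127815359 had 2.29% and 3.05%. RGMB, a co-receptor for bone morphogenetic proteins, had 2 and 0, and ACVR1, a type I receptor of that branch, had 0 and 1. None of SMAD1, SMAD4, SMAD6 and SMAD9 was listed, so the common partner SMAD4 has no value here.

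The nuclear and cytosolic partners also went both ways. Of 18 nuclear cofactors and corepressors 9 were listed, 3 with more and 6 with fewer. HDAC1, a histone deacetylase of corepressor complexes, had 4 after TGF-β1 and 3 in control, SIN3A, a corepressor scaffold, had 0 and 4, and SNW1, a SKI-binding cofactor, had 1 and 2. Of 12 cytosolic adaptors 7 were listed, 5 with more and 1 with fewer, among them AXIN1, a scaffold of Wnt signalling, with 5 and 1, PML with 3 and 2, and HGS, an endosomal sorting protein, with 3 and 1. Of 17 ubiquitin and phosphatase regulators 10 were listed, 6 with more and 3 with fewer. PPP1R15A, a regulatory subunit of protein phosphatase 1, had 7 and 2, the ubiquitin ligase STUB1 had 5 and 4, and the deubiquitinase USP11 had 6 and 0.

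**Figure D4:**
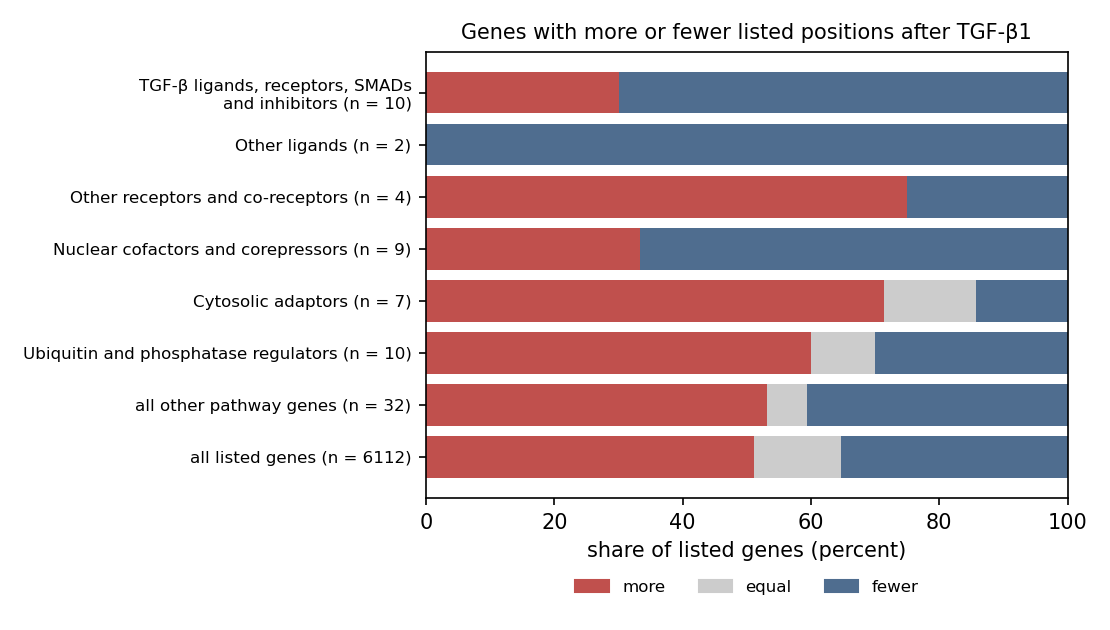
Share of listed genes (x axis, percent) with more (red), equal (grey) or fewer (blue) listed positions after TGF-β1 than in control, for the 10 genes, the further pathway genes by class, and all 6112 listed genes, with the number of listed genes in brackets. Of the 10 genes 3 have more and 7 have fewer, and the further classes lie on both sides of the 51.2% and 35.3% of all genes.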

How the data were processed

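The data were NaBH4-sequencing libraries of LX-2 cells, 2 per group, whose treated libraries have names that match gene symbols and were not taken for genes. The submitters' processing notes name fastp 0.23.1, STAR 2.7.6a, featureCounts and hg38, with no role or order. How positions were called and replicates combined is not given in the sources used here. For each group the authors deposited a single table, matched to its group by the table's name. Per the file headers it holds a difference, which is a fraction by its range, and a p-value per cytidine, and whether the p-value was adjusted is not stated. The terms of the subtraction are not stated either, and depth is unknown.

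Lines were merged to 1 per position and gene (Python 3.11.15, pandas 2.3.3), and a shared position is the same base on the same strand. The end column was read as the 1-based position. In the RefSeq promoter windows of GRCh38.p14 (250 bases before to 50 after a start), 334 of 334 positions read this way were C, and 58 were C at the start column. No position of the 10 genes lay in such a window, so the sequence around them was not analysed here. The counting was tested on simulated data and recovered 3 of 3 planted totals over 300 genes. The 10 genes and the lists were chosen with earlier results of these data known. All 10 are described, and of each class of further pathway genes up to 3 with the most positions are named. The shares for genes over 50 kb and for genes with 1 or 2 positions were added after the data were seen.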

Additional observations from a re-analysis of the deposited data

How the results depend on the processing

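The counts per class are small, and the limits set on the lists move them. With the authors' p below 0.01, the ligands kept 8 positions after TGF-β1 and 2 in control, the receptors 0 and 2, the receptor-activated SMADs 0 and 3, and the inhibitors 2 and 1, and 1 cytidine of the 10 genes was in both lists. With a mismatch difference of at least 5%, the counts were 2 and 2, 0 and 0, 1 and 2, and 1 and 1 in the same order, with 0 cytidines in both lists. With only the positions of lowest p kept from the TGF-β1 table, as many as control has, the ligands had 5 and 4, the receptors 0 and 3, the receptor-activated SMADs 0 and 5 and the inhibitors 2 and 3, with 1 cytidine in both lists. That cut takes positions from the TGF-β1 table only, so no class count after TGF-β1 could rise. In that setting 39.0% of all listed genes gained positions under TGF-β1 and 47.3% lost some. At the 5% minimum, 58.5% of 4536 genes gained and 30.1% (1365) lost. Of the 2600 genes with at least 3 positions, 65.4% (1701) gained and 24.7% (643) lost. Fewer genes are counted in both settings, but the shares moved as well. Over all 6112 listed genes, gains made up 51.2% and losses 35.3%. Leaving out p-values of exactly 0 could remove only the TGFB2 coding position, and the ligands then had 10 and 4. Leaving out positions in several genes could move no class count, since each position of the 10 genes is annotated to 1 gene. Counting cytidines within 10 bases as shared added 1 pair, in TGFB1, with a difference of -2.96 points. Depth is unknown, and its part in the counts was not tested. No paired analysis was possible because the tables hold 1 value per group and none per replicate, and for the same reason no replicate could be left out.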
